A study of Mus musculus with 2 samples.

Results

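Retrogenes are intronless copies of messenger RNAs that were inserted back into the genome, and several imprinted ones in the mouse lie within introns of older host genes. Mcts2, in an intron of H13, Nap1l5, in an intron of Herc3, and Zrsr1, in an intron of Commd1, are of this kind, and Nnat, which has introns of its own, lies in the same way within Blcap. The members described here are these 4 nested genes, their 4 hosts and Inpp5f, taken by gene name from the table of allele-specific RNA. All 9 were found among its 48550 rows. The RNA was total nuclear RNA from F121-6, a female hybrid mouse embryonic stem (ES) cell line with 1 chromosome set of the 129 strain and 1 of *Mus musculus castaneus* (cas), grown with LIF in serum on mitomycin-C-inactivated mouse embryonic fibroblasts. The samples were 2 libraries of this single line in 1 group, so the comparison was between alleles within a library. The sources used here do not name the strain of the mother, and a strain difference and a parental difference cannot be told apart in a single cross direction. The labels do not state whether separate cultures were used, so p-values rest only on the spread between these libraries, which may be technical. The test used (limma) pools this spread over genes of like level. A p-value is therefore not a measure of how well the libraries agree for that gene alone.

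Imprinted genes are expressed mainly from the allele of 1 parent, according to DNA methylation set in the egg or sperm. The promoters of Mcts2, Nap1l5, Zrsr1 and Nnat are known to carry methylation from the egg, and their RNA is known to come from the paternal allele, with Nap1l5 and Nnat best known from brain. In H13 and Herc3, host transcripts are known to end early on the allele that expresses the nested gene. Inpp5f is known for a short imprinted variant that starts at an internal promoter and shares its last exons. The zinc finger protein ZFP57, which keeps imprints methylated in ES cells, recognises methylated TGCCGC.

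The promoter windows of the 4 nested genes are shown because this is where each imprint is set. They run from 250 bases before to 50 bases after the RefSeq start (build GRCm38.p6, the assembly of mm10), 5′ to 3′ on the strand of the gene, and capitals mark TGCCGC or its reverse complement GCGGCA.
Mcts2: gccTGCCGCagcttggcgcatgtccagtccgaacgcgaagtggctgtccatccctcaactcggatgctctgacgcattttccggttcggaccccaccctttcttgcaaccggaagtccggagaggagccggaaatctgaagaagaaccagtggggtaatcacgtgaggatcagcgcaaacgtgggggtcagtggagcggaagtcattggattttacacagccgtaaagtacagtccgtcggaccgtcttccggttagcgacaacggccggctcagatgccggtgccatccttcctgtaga
Nap1l5: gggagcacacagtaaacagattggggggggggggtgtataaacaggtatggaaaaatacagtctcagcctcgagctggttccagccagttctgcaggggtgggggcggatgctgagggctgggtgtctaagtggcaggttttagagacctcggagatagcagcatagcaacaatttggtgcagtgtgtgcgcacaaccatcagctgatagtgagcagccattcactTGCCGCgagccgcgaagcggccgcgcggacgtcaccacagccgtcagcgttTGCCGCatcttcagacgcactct
Zrsr1: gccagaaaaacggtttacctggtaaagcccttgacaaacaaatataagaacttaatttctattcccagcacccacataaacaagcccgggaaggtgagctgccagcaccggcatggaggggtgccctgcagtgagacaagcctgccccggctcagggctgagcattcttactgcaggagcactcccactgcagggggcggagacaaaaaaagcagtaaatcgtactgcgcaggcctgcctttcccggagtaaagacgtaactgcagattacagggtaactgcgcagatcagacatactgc
Nnat: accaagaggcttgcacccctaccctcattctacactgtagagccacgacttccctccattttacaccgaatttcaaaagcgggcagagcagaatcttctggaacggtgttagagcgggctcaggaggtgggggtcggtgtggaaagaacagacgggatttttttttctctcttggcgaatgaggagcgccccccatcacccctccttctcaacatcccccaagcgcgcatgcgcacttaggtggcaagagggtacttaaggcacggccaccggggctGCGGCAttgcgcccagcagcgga
The windows lie at chr2:152686898-152687197 (plus strand) for Mcts2, chr6:58907077-58907376 (minus strand) for Nap1l5, chr11:22971755-22972054 (plus strand) for Zrsr1 and chr2:157559828-157560127 (plus strand) for Nnat. Both strands were searched for TGCCGC. The Nap1l5 window held 2 copies, the Mcts2 and Nnat windows 1 each and the Zrsr1 window 0. Of 32851 RefSeq promoter windows of this length, 11.6% held at least 1 copy and 1.5% held 2 or more. Among the host windows, 1 of the 2 Commd1 starts held a copy, and those of H13, Herc3 and Blcap, like that of Inpp5f, held 0. CpG dinucleotides, the sites of methylation, numbered 25 in the Mcts2 window, 17 in those of Nap1l5 and Nnat and 10 in that of Zrsr1. The median over all windows was 7. Host windows held 21 for H13, 4 for Herc3, 18 and 17 for the 2 Commd1 starts and 17 for Blcap. That of Inpp5f held 15. A CpG count above the median was thus not particular to the nested genes. A match is a description of these letters only.

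The annotation (GENCODE M21, mm10) placed each nested gene wholly within its host. Mcts2 (chromosome 2, 152687035 to 152687946, plus strand) was a single exon of 912 bp within intron 4 of the full-length H13 transcripts (gene span 152669461 to 152708670, plus strand). A short coding H13 transcript ended 334 bp before it. Nap1l5 (chromosome 6, 58905233 to 58907076, minus strand) lay within intron 22 of the longer Herc3 transcript (gene span 58831465 to 58920398, plus strand), whereas a shorter transcript of 23 exons ended 1152 bp before it. Nap1l5 itself had a coding transcript of 1 exon and another of 2 exons. Zrsr1 (chromosome 11, 22972005 to 22976496, plus strand), a single exon, lay within intron 1 of 3 coding Commd1 transcripts (gene span 22896136 to 22982382, minus strand), while an exon of another coding transcript touched it. Nnat (chromosome 2, 157560078 to 157562522, plus strand) lay within intron 1 or 2 of the coding Blcap transcripts (gene span 157556362 to 157571274, minus strand). Mcts2 was thus the only member of the 4 nested genes on the strand of its host.

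**Figure D1:**
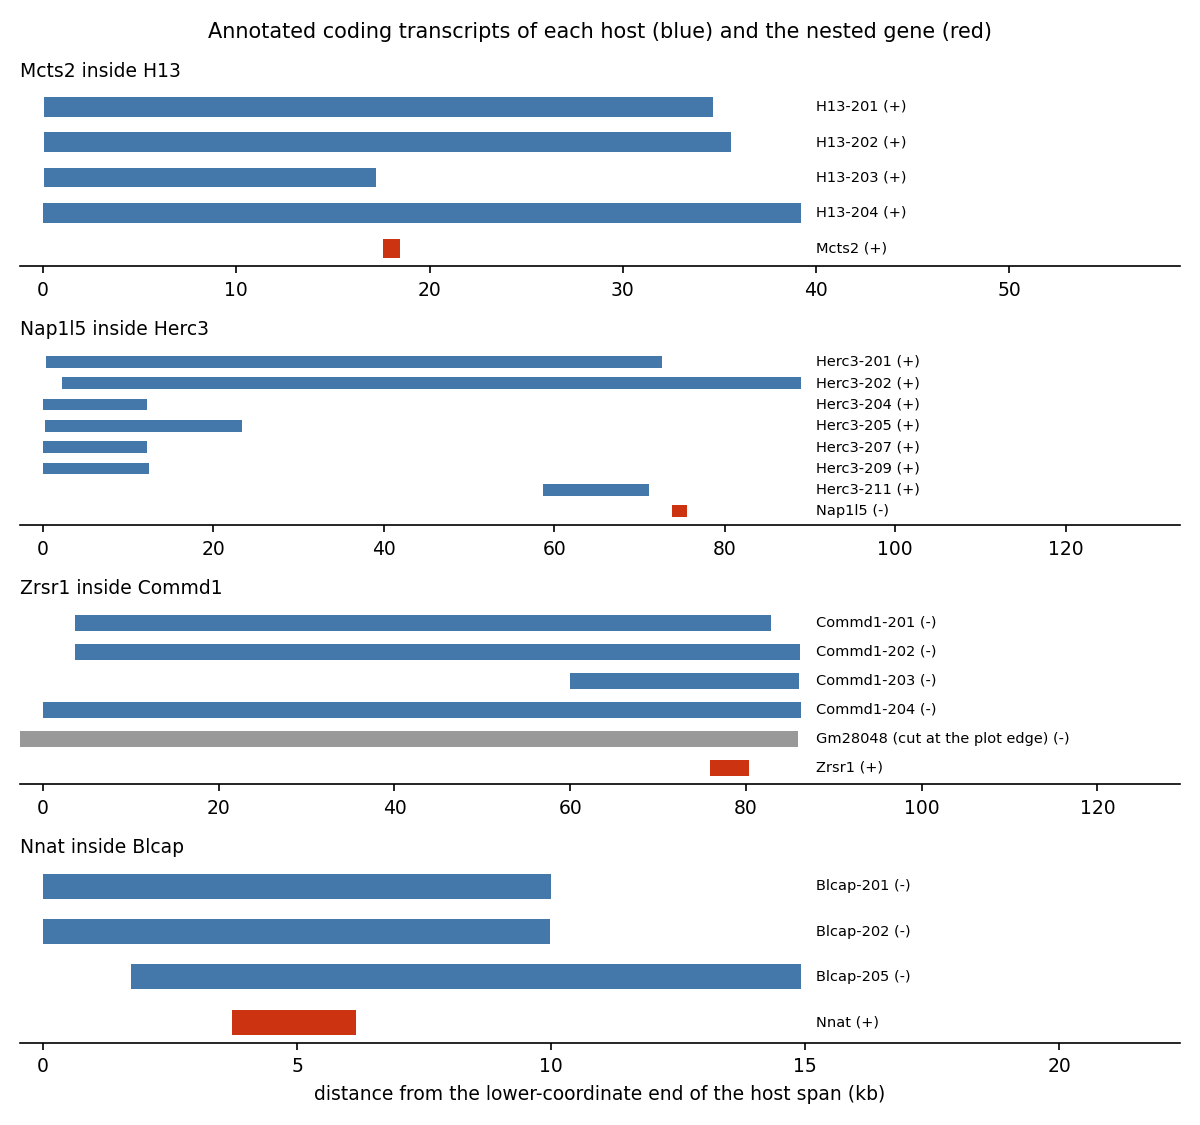
Coding transcripts of each host (blue bars) and the nested gene (red bars), drawn as whole spans with introns not marked, against distance from the lower-coordinate end of the host span in kb, with strand in brackets. The short transcript of H13 and the 23-exon transcript of Herc3 end before the nested gene, and the grey bar is Gm28048, which runs over nearly all of Commd1.

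The retrogenes differ in how close they stay to their relatives, and whether this affected the placing of reads was not tested. Over the longest open reading frames of the GENCODE transcripts, Mcts2, a relative of a translation re-initiation factor, was 85.2% identical to its X-linked source Mcts1 over 546 bp. Zrsr1, a U2AF-related splicing factor, was 79.2% identical to its X-linked relative Zrsr2 over 1280 bp. Nap1l5, a small member of the nucleosome assembly protein family, was 59.3% to 63.9% identical to Nap1l1, Nap1l2, Nap1l3 and Nap1l4 over 429 to 460 bp.

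All 4 nested genes were listed at 0 in every column. Mcts2, Nap1l5, Zrsr1 and Nnat had 0 reads from 129 and 0 from cas in library 1, and 0 and 0 in library 2, so no allele share exists for any of them. By counting alone, 0 allows up to 3 reads, which in counts per 1e6 allele reads of the column (CPM) is 0.196 for 129 and 0.227 for cas in the first library, then 0.176 for 129 and 0.208 for cas in the second. This limit applies only to reads that the counting could assign to the row. The planned comparison of each nested gene with its host therefore gave no value for any of the 4 pairs.

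A listing at 0 was the rule for genes inside other genes in this table. Of 1093 protein-coding genes whose annotated span lay inside that of another row, 1062 (97.2%) were listed at 0 in all 4 columns, against 3025 of 19950 others (15.2%). The share was 98.6% of 348 genes inside a span on the same strand, the position of Mcts2, and 96.4% of 724 inside a span on the opposite strand, the position of Nap1l5, Zrsr1 and Nnat. Among genes with spans of 912 to 4492 bp, the range of the 4 nested members, 97.9% of 340 inside another span were at 0, compared with 40.9% of 2658 that were not. Where the host had at least 1000 reads, 95 of 96 coding genes nested in a coding host on the same strand and 265 of 273 on the opposite strand were at 0. The genes at 0 included Sox2, a transcription factor that ES cells need, which lies inside another span on the same strand, and B2m, the light chain of class I histocompatibility molecules, inside a span on the opposite strand. The 0 of Mcts2, Nap1l5, Zrsr1 and Nnat is thus reported as a listing and not as a level. Whether their RNA was absent was not tested.

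**Figure D2:**
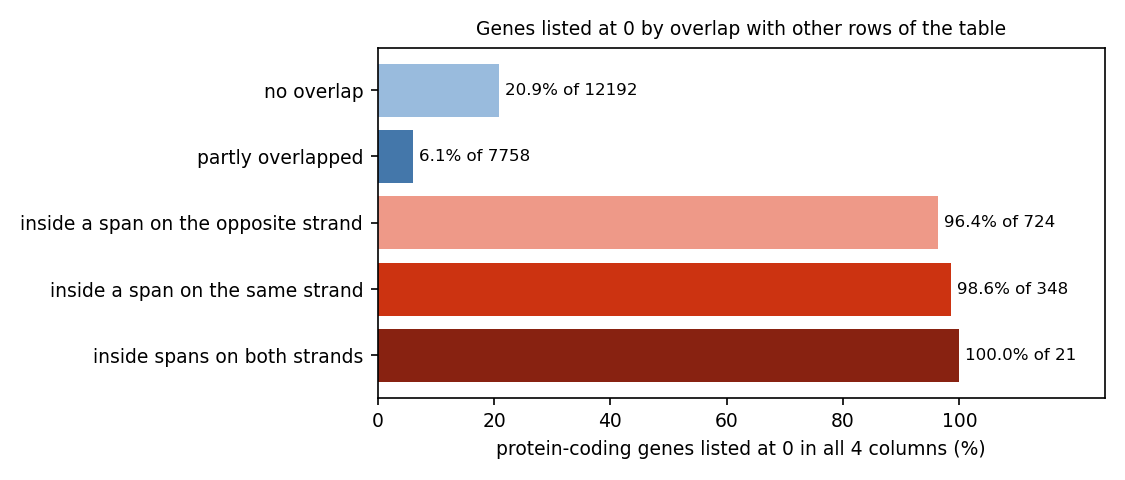
Share of protein-coding genes listed at 0 in all 4 allele columns (percent, horizontal axis), by how the annotated span overlaps other rows of the table, with the number of genes beside each bar. Genes inside another span were at 0 in 96.4% to 100.0% of cases, whichever strand the surrounding gene was on.

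Among 76 genes that GENCODE tags as retrogenes, Mcts2 among them, all 14 inside another span were at 0. Nap1l5 and Zrsr1 do not carry this tag. Of the 54 with no overlap, 19 (35.2%) were at 0 and 16 had at least 20 reads. Nap1l2, an X-linked relative of Nap1l5, was inside a span on the same strand and was also listed at 0.

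H13, Herc3 and Blcap had reads from both alleles in both libraries. H13, the signal peptide peptidase that cleaves within membranes, had 1039 reads from 129 beside 850 from cas in library 1, and 1239 beside 1030 in library 2. The 129 share was 55.0% (exact 95% interval 52.7 to 57.3) and 54.6% (52.5 to 56.7), close to the 53.6% and 54.2% of all allele reads. With each allele column scaled to the typical gene, the log2(129/cas) of CPM + 0.1 was -0.01 and -0.09, and -0.05 over both libraries (SE 0.10, 95% interval -0.25 to 0.14, limma adjusted p = 0.71), without a call. With the deposited column totals it was 0.05, and with 1 shared library size 0.28 and past the threshold (adjusted p = 0.013). H13 thus gave reads from both alleles in near-equal amounts. Because the table has 1 row per gene, the short and full-length H13 transcripts, known to differ by allele, cannot be told apart in it.

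Herc3, a HECT-type ubiquitin ligase, was read more often from 129 in each library. It had 1171 reads from 129 beside 820 from cas in library 1, and 1296 beside 882 in library 2, shares of 58.8% (exact 95% interval 56.6 to 61.0) and 59.5% (57.4 to 61.6). The log2 ratio was 0.22 and 0.19, and 0.20 over both (SE 0.10), with a limma adjusted p of 0.082 that missed the threshold of 0.05. With the deposited column totals it was 0.31 and with 1 shared library size 0.53, both past it (adjusted p = 0.0061 and 6.7e-07). The excess of 129 reads was therefore 1.15-fold relative to the typical gene (95% interval 1.01 to 1.32, not adjusted for the number of genes tested). Whether it counts as a difference depends on the scaling.

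Blcap, a small conserved protein first described in bladder cancer, had few reads. There were 42 from 129 and 26 from cas in library 1, and 48 and 25 in library 2, with 129 shares of 61.8% (exact 95% interval 49.2 to 73.3) and 65.8% (53.7 to 76.5). Both libraries leaned to 129, with log2 ratios of 0.38 and 0.55 and a joint value of 0.47 (SE 0.50, limma adjusted p = 0.48). The 95% interval of -0.51 to 1.45 left room for a 2.72-fold excess of 129 as well as for none. Its pooled 129 share was 63.8% (exact 95% interval 55.3 to 71.7), an interval that leaves out the spread between libraries. An allele bias of Blcap of moderate size was not detectable by limma at this depth.

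Commd1, which acts in copper handling and endosomal sorting, had 3 reads from cas and 0 from 129 in library 1, and 0 from both alleles in library 2. It was not tested, and its pooled 129 share of 0% had an exact 95% interval up to 70.8%. Of its span of 86247 bp, 292 bp were free of other rows, since Gm28048, annotated as coding on the same strand from 22834744 to 22982090, covers nearly all of it. Among overlapped coding genes with 1 to 300 uncovered bp, 79.1% of 191 were at 0, against 1.5% of 5761 with more than 10000. Gm28048, chosen here after its values were seen, had 46 reads from 129 and 63 from cas in library 1, and 74 and 113 in library 2. Its log2 ratio was -0.84 (SE 0.35, limma adjusted p = 0.039), a call lost with the deposited column totals (adjusted p = 0.075), 1 shared library size (0.22), a minimum of 1 read (0.069) and no block (0.13). How many of its reads arose from Commd1 transcripts was not tested. The other 9 COMMD family genes in the table all had at least 71 reads, and none of them was called. The nearest tested coding genes outside the Commd1 span, 1 on each side, were Tmem17, 377 kb away, and Cct4, 8.14 kb away. Tmem17 (log2 ratio 0.23) was not called. Cct4 had -0.10 without a call and 0.00 with the deposited column totals. With 1 shared library size Cct4 had 0.23 and was called higher from 129 (limma adjusted p = 0.013).

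Inpp5f, a phosphatase of phosphoinositides, was the member with an allele difference. It had 909 reads from 129 against 1112 from cas in library 1, and 1051 against 1389 in library 2. Its 129 share was 45.0% (exact 95% interval 42.8 to 47.2) and 43.1% (41.1 to 45.1), in both libraries below the share of all allele reads. The log2 ratio was -0.59 and -0.76, and -0.68 over both (SE 0.10, limma adjusted p = 2.8e-11), a 1.60-fold excess of cas relative to the typical gene. It kept its direction and its call in all scalings, from -0.35 with 1 shared library size to -0.68. On chromosome 7, the gene span of 128611328 to 128696425 holds 2 short coding transcripts near its end, which start at 128688489 and 128687546; the annotation names neither as the imprinted variant. The row sums the reads of short and full-length transcripts. Mcmbp, a gene on the opposite strand whose 3′ end lies 0.016 kb beyond that of Inpp5f, had -0.06 without a call, 0.04 with the deposited column totals, and 0.27 with 1 shared library size, where it was called higher from 129 (limma adjusted p = 0.0021). Bag3 on the other side had -0.14, and 0.19 with 1 shared library size, without a call in either.

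**Figure D3:**
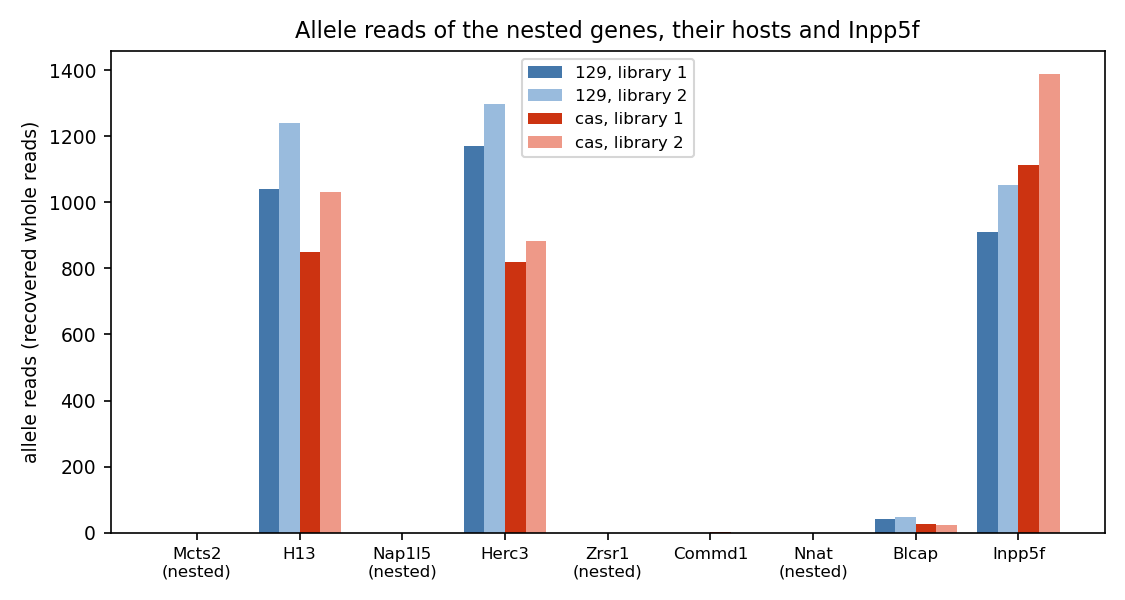
Allele reads (vertical axis, recovered whole reads) of the 9 members, with 1 bar for each allele and library. The 4 nested genes stand at 0, Commd1 has 3 reads, Blcap 25 to 48 per column, and only Inpp5f is higher from cas in both libraries among the members with more than 3 reads.

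A test needed 20 allele reads per library, which 4 of the 9 members reached, and 1 of these was called. Over all 15509 tested genes, 44.0% were called, 21.9% higher from 129 and 22.0% higher from cas, so a call for 1 of 4 does not set the members apart. The part of the calls that was higher from 129 was 49.9% and depended on the scaling: it was 61.9% with the deposited column totals and 81.3% with 1 shared library size, which moved the median of all genes from 0.00 to 0.10 and 0.32. The ratios of H13, Herc3 and Blcap lay within or at the edge of the interquartile range of all tested genes (-0.36 to 0.47), and that of Inpp5f lay below it, at the 13.5th percentile. Across the table, 30 of 11212 annotated nested pairs had enough reads in both genes for a comparison of allele ratios. Of these 30, 9 (30.0%) were called by limma, a share that does not stand for nested pairs at large. None of the 4 member pairs was among the 30. Per kb of uncovered span, and over both libraries, H13 had 114 allele reads, Inpp5f 52.9, Herc3 47.9 and Blcap 11.3, values that also depend on how many sites differ between the strains.

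The chromosomal surroundings did not share a direction from locus to locus. Around Herc3, Abcg2 and Fam13a, the nearest tested coding genes, were both higher from 129, with log2 ratios of 0.68 (SE 0.08, limma adjusted p = 1e-15) and 1.61 (SE 0.39, adjusted p = 0.00016), and no other row within 250 kb was tested. Next to H13, Cox4i2 was called higher from 129 at 1.07 (SE 0.33), but its libraries gave 0.13 and 2.01 and the call was lost with no block (adjusted p = 0.11). On the other side, 225 kb away, 6820408C15Rik had -0.34 (limma adjusted p = 0.57). Near Blcap, the kinase gene Src had -0.37 (limma adjusted p = 0.0054), with -0.09 in library 1 and -0.64 in library 2, a call lost with the deposited column totals (0.057), 1 shared library size (0.82) and no block (0.16), and Ctnnbl1 had 0.32 (adjusted p = 0.44). Among tested rows within 250 kb, 1 of 4 around H13 was higher from 129 and 1 from cas, and around Commd1 1 of 5 was higher from 129 and 1 from cas. The row called for cas around Commd1 was Gm28048, which overlaps Commd1 and lost its call in other settings. Around Blcap 2 of 5 were higher from cas and 0 from 129, and around Inpp5f 3 of 5 were higher from cas and 0 from 129. These counts are too small to set against the 22.0% of all tested genes called for cas. The 5 log2 ratios around Inpp5f ran from -2.24 to -0.06 (median -0.30), on the cas side like Inpp5f itself. Mcmbp and Bag3, not called, are among these and turned to 129 with 1 shared library size. Ratios around H13 (-0.34 to 1.07), Commd1 (-0.84 to 0.79) and Blcap (-2.54 to 0.32) went both ways.

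**Figure D4:**
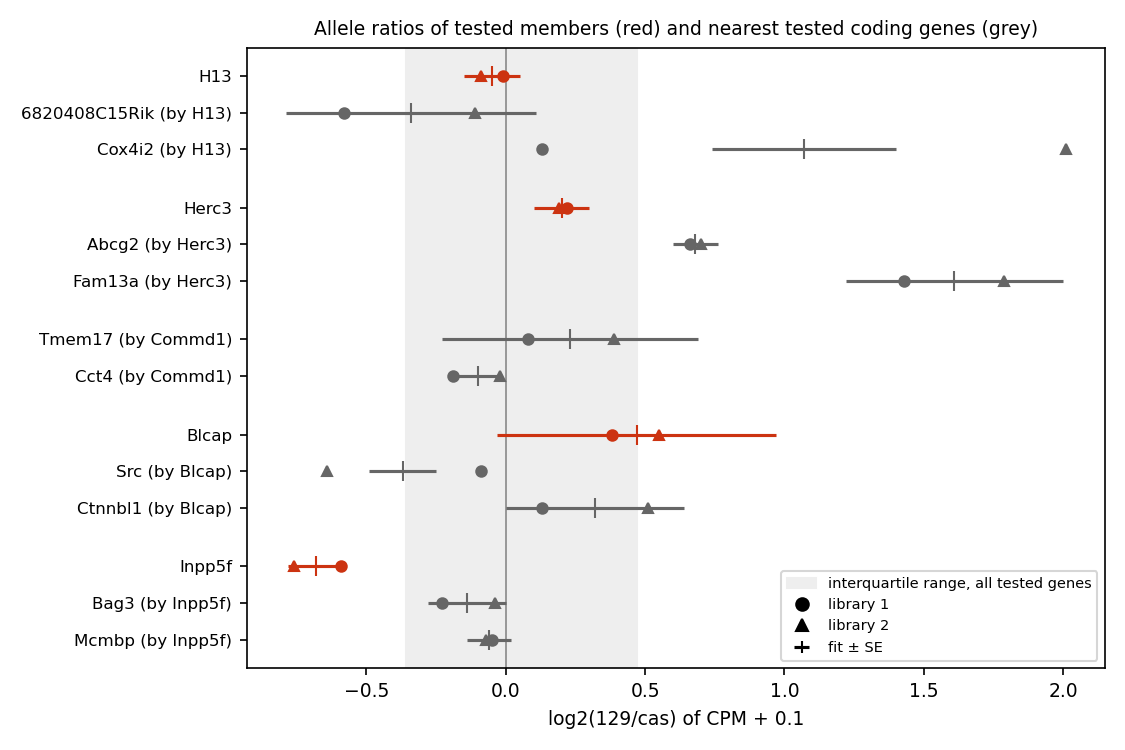
Log2(129/cas) of CPM + 0.1 (horizontal axis) for the tested members (red) and the nearest tested protein-coding genes on each side (grey), with circles for library 1, triangles for library 2 and a tick with bars for the fit ± SE. The grey band is the interquartile range of all tested genes (-0.36 to 0.47), and Inpp5f lies below it. Commd1 itself is not drawn because it was not tested.

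The relatives of the retrogenes were readable. Mcts1, the source of Mcts2, had 29 reads from 129 and 30 from cas in library 1, and 25 and 34 in library 2 (log2 ratio -0.55, SE 0.53, limma adjusted p = 0.43). Zrsr2, the relative of Zrsr1, had 1402 from 129 beside 1132 from cas in library 1 and 1505 beside 1263 in library 2, and its log2 ratio of -0.05 (SE 0.09, limma adjusted p = 0.70) turned to 0.05 with the deposited column totals and to 0.28, a call for 129, with 1 shared library size (adjusted p = 0.0055). Both X-linked genes gave reads from both alleles. Among 25 tested source and family genes, calls went to 129 for 3 and to cas for 2, and 20 had none; their median log2 ratio was 0.06, against 0.00 over all tested genes. Sppl2a, a relative of H13, had the largest called ratio, 1.00 (SE 0.15, limma adjusted p = 2.6e-10), and Denr, whose protein pairs with that of Mcts1, had 0.30 (SE 0.12, adjusted p = 0.028).

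Few other imprinted genes lay inside another span. In a list of paternally expressed genes without the members, Kcnq1ot1, Peg13 and Snurf were the 3 of 30 inside another span, and all were listed at 0, as were 3 of the other 27. Calls among its 21 tested genes went to 129 for 6 and to cas for 8, with none for 7 (median -0.26). Its tested genes with the most reads were Sfmbt2 (log2 ratio 1.86), Impact (-0.50, adjusted p = 0.058 with no block) and Slc38a4 (-0.49). In the list of maternally expressed genes, Tssc4 was the single gene inside another span and was at 0, and 3 of 21 tested genes were higher from 129, 7 from cas and 11 not called (median -0.21). Those with the most reads were Rian (-2.12), Ppp1r9a (-0.24, turning to 0.09 with 1 shared library size) and Trappc9 (-0.28, turning to 0.05), the last pair not called with no block (adjusted p = 0.11 and 0.068). All 16 genes in a list labelled imprint maintenance were in the table, none inside another span and none at 0. The list was broader than its label and included Tet1 and Tet2. Of 14 tested, 4 were higher from 129 and 6 from cas. Tet1 had 0.74, Tet2 0.12 (adjusted p = 0.41 with no block) and Hells -0.09, turning to 0.01 with the deposited column totals and to 0.24, a call for 129, with 1 shared library size (limma adjusted p = 2.1e-05).

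The libraries held 28523744 and 31402765 allele reads. The 8 ES cell markers were all present and summed to 93766 and 98016 reads. The 8 fibroblast markers, with Lum at 0, summed to 1637 and 2634 reads, 95.4% and 96.3% of them from 129, so reads of these markers leaned to 129; the part of feeder RNA in the 129 reads of H13, Herc3 and Blcap was not tested. The 8 neuron markers summed to 7571 and 9287, with Tubb3, inside another span, at 0.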

How the data were processed

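Allele-specific nuclear RNA was sequenced from 2 libraries of F121-6 cells. Reads were aligned with Bowtie2 to mm10, per the submitters' processing notes, with no version; no source used here names the read counter, the SNP set or whether strand was used. The deposited values are RPKM (called counts in the header), with a length for each row as the file header gives it. RPKM times length in kb came out as whole multiples of a column-specific step for 100.0% of values (tolerance 0.01 read), which gave whole reads. Rows were matched to GENCODE M21 by name, chromosome and strand (46410 of 48550, 95.6%), and overlaps were computed between the spans of matched rows, without the Y chromosome. Limma 3.58.1 in R 4.3.3 was run on log2(CPM + 0.1), a scale that understates changes of low genes, with trimmed-mean (TMM) scaling per allele column, library as a block since both alleles come from the same RNA, and at least 20 allele reads in each library; p-values were adjusted by Benjamini-Hochberg over all tested genes. Nested pairs were tested by limma on the difference of the log2 ratios. The code was tested on simulated data. Intervals of allele shares are exact binomial and cover counting error only. Intervals of log2 ratios and of fold values come from the limma estimate and its SE. They rest on the spread between libraries, pooled over genes of like level. The members, lists and tests were chosen with earlier results of these data known. The genes named were the members, source and family genes, the nearest tested coding gene on each side and up to 3 genes per imprinting list; no nested gene was tested, so none was named for a like pattern.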

Additional observations from a re-analysis of the deposited data

How the results depend on the processing

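Inpp5f kept its direction and its call under every alternative that gave a test, Blcap had none under any, Herc3 gained one under both other scalings, and H13 gained one with 1 shared library size only. With the deposited column totals, H13 had 0.05 and Herc3 0.31, and with 1 shared library size 0.28 and 0.53. The same scalings turned the sign for Cct4 (0.00 and 0.23), Mcmbp (0.04 and 0.27), Zrsr2 (0.05 and 0.28) and Hells (0.01 and 0.24), without a call at the first value and with a call for 129 at the second. With 1 shared library size, Bag3, not called before, had 0.19, and Ppp1r9a and Trappc9, both called for cas before, had 0.09 and 0.05, none of them called. With no replicate block, which ignores the pairing of alleles by library, 3953 genes were called in place of 6818, and for Inpp5f the adjusted p was 0.0041. Nested pairs called numbered 9 of 30, with 4 of 68 at a minimum of 1 read, 5 of 18 at 100 reads and 2 of 14 on opposite strands only; of the same 30, 11 and 12 were called with pseudocounts of 0.5 and 1 CPM, 12 by Fisher tests in each library and 9 with either other scaling. Without replicate 1 or replicate 2, there is no residual degree of freedom and no test; the ratios were then those of the single libraries, -0.09 to -0.01 for H13, 0.19 to 0.22 for Herc3, 0.38 to 0.55 for Blcap and -0.76 to -0.59 for Inpp5f. The planned edgeR alternative on the recovered reads was not run.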
